A study of Mus musculus with 6 samples.

Results

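The tumour suppressor p53 (Trp53 in the mouse), its inhibitors Mdm2 and Mdm4, and 7 genes that p53 is known to activate (Ccng1, Sesn1, Phlda3, Zmat3, Aen, Trp53inp1 and Ei24) were followed in M2-polarized macrophages given polymer nanoparticles. The 10 genes were taken by symbol from the 55487 gene rows of the deposited count table, each symbol matched 1 row, and all 10 were among the 14478 genes with enough reads to be tested. The cells were macrophages grown from the bone marrow of female BALB/c mice, wild type and aged 6 to 12 weeks. Marrow was cultured for 8 days in medium holding 20% L929 conditioned medium and polarized for 24 h with IL-4 and IL-13, each at 10 ng/mL. The tested cells (NP, 3 libraries) then received poly(lactide-co-glycolide) nanoparticles, a biodegradable polyester, at 200 µg/mL for 24 h. Their treatment label is PEMA, which the sources used here do not explain. The other 3 libraries came from the same kind of cells given PBS, the vehicle (PBS). Since no label gives separate cultures or animals, the spread that the p-values rest on is that between these libraries and may be technical.

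p53 is a transcription factor that binds DNA as a tetramer and switches on genes for cell-cycle arrest, DNA repair, metabolism and apoptosis after DNA damage and other stress. Its amount is set largely at the protein level: Mdm2, an E3 ubiquitin ligase, marks p53 for degradation, and its relative Mdm4 binds p53 and blocks its activation domain. Mdm2 is itself a p53 target, which closes a negative feedback loop. The levels below are of mRNA and do not measure the amount or activity of the p53 protein.

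The p53 half-site, a run of 10 bases made of 3 purines, C, a pair of A or T, G and 3 pyrimidines, is shown because it is the sequence through which p53 reads its targets. It was searched in RefSeq promoter windows of build GRCm38.p6, which run from 250 bases before to 50 bases after a gene's start. The pattern is its own reverse complement, so each match covers both strands. RefSeq windows were given for 8 of the 10 genes (11 windows), and for neither Zmat3 nor Trp53inp1. In the sequences, capitals mark an exact half-site, with 20 bases on each side.
Trp53: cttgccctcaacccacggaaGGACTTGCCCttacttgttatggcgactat
Mdm2: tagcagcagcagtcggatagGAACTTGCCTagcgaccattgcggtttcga
Ccng1: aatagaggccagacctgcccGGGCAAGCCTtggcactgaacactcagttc
Sesn1: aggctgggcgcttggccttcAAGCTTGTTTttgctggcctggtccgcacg
Aen: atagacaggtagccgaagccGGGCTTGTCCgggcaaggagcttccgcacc
Ei24: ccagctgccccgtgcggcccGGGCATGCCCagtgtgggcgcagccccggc

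These stretches lie at chr11:69580264-69580313 on the plus strand for Trp53, chr10:117710915-117710964 on the minus strand for Mdm2 and chr11:40755442-40755491 on the minus strand for Ccng1. Those of Sesn1, Aen and Ei24 lie at chr10:41887246-41887295 (plus), chr7:78895917-78895966 (plus) and chr9:36797315-36797364 (minus). Counted from a start at +1, the half-site ran from -75 to -66 in Trp53, -186 to -177 in Mdm2, -185 to -176 in Ccng1, -173 to -164 in Sesn1 and -10 to -1 in Ei24. Sesn1 has 2 windows: the positions are counted from the downstream start, inside the gene, and the window of the upstream start held no exact half-site. Aen has 2 annotated starts, and its half-site ran from -121 to -112 of the downstream one and from +11 to +20 of the upstream one. An exact half-site stood in 7 of the 11 windows (63.6%), against 8.36% of all 32851 promoter windows, 8 of 48 windows (16.7%) of other p53 targets and 4 of 36 windows (11.1%) of other p53 regulators. The 2 windows of Aen overlap and hold the same half-site. Counted by gene, the share was 6 of 8 (75%), against 9.55% of all 27025 genes with a window, 24.2% of other targets and 14.8% of other regulators. With 1 flanking letter allowed to differ, the share was 72.7% of the members' windows and 39.6% of all windows. A pair of half-sites 0 to 13 bases apart, each with at most 1 flanking letter off, was in 0 of the 11 windows and in 1.39% of all windows. The inner C, A or T pair and G had to be exact, so pairs with a letter off there were not counted. A match is a description of the letters, not evidence of binding.

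Total counts per library ran from 60702163 to 69450411 in NP and from 41974957 to 56265590 in PBS, so every NP library was deeper. Counts of the 10 genes ran from 1261 (Phlda3, PBS 2) to 23670 (Mdm2, NP 1), so none had few reads. Counting error was not set apart from other spread for these genes. Macrophage markers were abundant as a sum in both groups: 9690 to 10800 CPM (counts scaled to library depth) in NP and 13000 to 13200 CPM in PBS. Most of that was Lyz2 (mean 6738 CPM in NP, 8330 CPM in PBS), while Fcgr1 averaged 5.65 CPM in NP and 5.23 CPM in PBS. Of the 8 markers 6 were lower, Mrc1 most (by 1.32 on the log2 scale), and Cd68 was higher by 0.14. Over all tested genes 21.4% were lower and 19.8% higher. Summed levels here are scaled to library totals alone, whereas CPM of single genes also takes in the TMM factors. Of 10 dividing-cell markers 9 were lower, again beside 21.4% of all tested genes. Their summed level was 774, 1040 and 848 CPM in NP 1 to 3, against 1660, 1570 and 1630 CPM in PBS 1 to 3. The part of depth and of these marker levels in the differences below was not tested. In bulk RNA, fewer cells of a type and less RNA per cell cannot be told apart. Summed markers of neutrophils, B cells, T cells, dendritic cells, fibroblasts and erythroid cells stayed at or below 3.1 CPM in NP and 4.05 CPM in PBS. PBS 2 and PBS 3 stood apart in 2003 genes for olfactory and vomeronasal receptors: their summed level was 9.7, 10.3 and 11.9 CPM in NP, against 12.5, 138 and 153 CPM in PBS 1 to 3. Results are therefore also given for PBS 1 alone against NP, in a fit that assumes that the lone library varies like the NP libraries.

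Over all tested genes, limma voom called 41.2% changed at an adjusted p under 0.05, with 19.8% higher and 21.4% lower in NP. Of the 10 genes, 9 passed: Mdm2 and Aen were higher, Trp53 and 6 targets were lower, and Mdm4 did not pass. Among the 6633 genes with a mean of at least 25 CPM, a level that all 10 genes reach and that was chosen after the values were seen, 53.6% passed. The changes were small: none of the 10 reached 2-fold, and their median log2 fold change was -0.15, beside -0.003 over all tested genes. In 9 of the 10 genes no NP library overlapped a PBS library, as in 53.3% of all tested genes. Changes of these genes are therefore to be read against a comparison in which a large share of all genes moved.

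Mdm2 carried the largest change of the 10. Its level was 348, 336 and 337 CPM in NP 1 to 3, against 261, 249 and 251 CPM in PBS 1 to 3. All 3 NP libraries lay above all 3 PBS libraries, with little spread inside either group. The mean was 340.4 ± 6.67 CPM in NP and 253.5 ± 6.12 CPM in PBS (SD, n = 3 each), which is 34.3% higher (log2 fold change 0.43, SE 0.03; limma voom adjusted p = 2.27e-05). Its p-value ranked 133 among all tested genes, and its change was larger in size than that of 80.8% of them. The gene (ENSMUSG00000020184) lies at chr10:117688875-117710758 on the minus strand of GRCm38. Against PBS 1 alone the log2 fold change was 0.38 (limma voom adjusted p = 0.0053).

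Trp53 moved the other way and by less. Its level was 60.01, 63.9 and 62.3 CPM in NP 1 to 3, against 71.7, 67.0 and 71.1 CPM in PBS 1 to 3. The groups did not overlap, and NP 2 and PBS 2 were the closest pair across them. The mean was 62.1 ± 1.93 CPM in NP and 69.9 ± 2.57 CPM in PBS (SD, n = 3 each), with a log2 fold change of -0.17 (SE 0.04; limma voom adjusted p = 0.00614). NP 2 was the highest NP library for Trp53 and also for the dividing-cell markers; the part of those cells in the difference was not tested. Without the filter on low counts the adjusted p of limma voom was 0.0529, so the call ended there. Against PBS 1 alone the log2 fold change was -0.21 (limma voom adjusted p = 0.039). The gene (ENSMUSG00000059552) lies at chr11:69580359-69591873 on the plus strand, and its processed pseudogene Trp53-ps had at most 1 count in any library.

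Mdm4 did not pass the test. Its level was 64.7, 64.1 and 68.3 CPM in NP 1 to 3, against 70.5, 66.4 and 66.6 CPM in PBS 1 to 3. The groups overlapped, since NP 3 lay above PBS 2 and PBS 3. The log2 fold change was -0.05 with a 95% interval of -0.14 to 0.04 (limma voom adjusted p = 0.359), an interval that leaves room for a decrease of the size seen in Ei24. Mdm4 was not called under any of the 16 alternative settings, with adjusted p of limma between 0.137 and 0.966. The gene (ENSMUSG00000054387) lies at chr1:132959484-133030561 on the minus strand; its pseudogene Mdm4-ps had 0 to 2 counts in the NP libraries and 1, 15 and 12 counts in PBS 1 to 3.

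**Figure D1:**
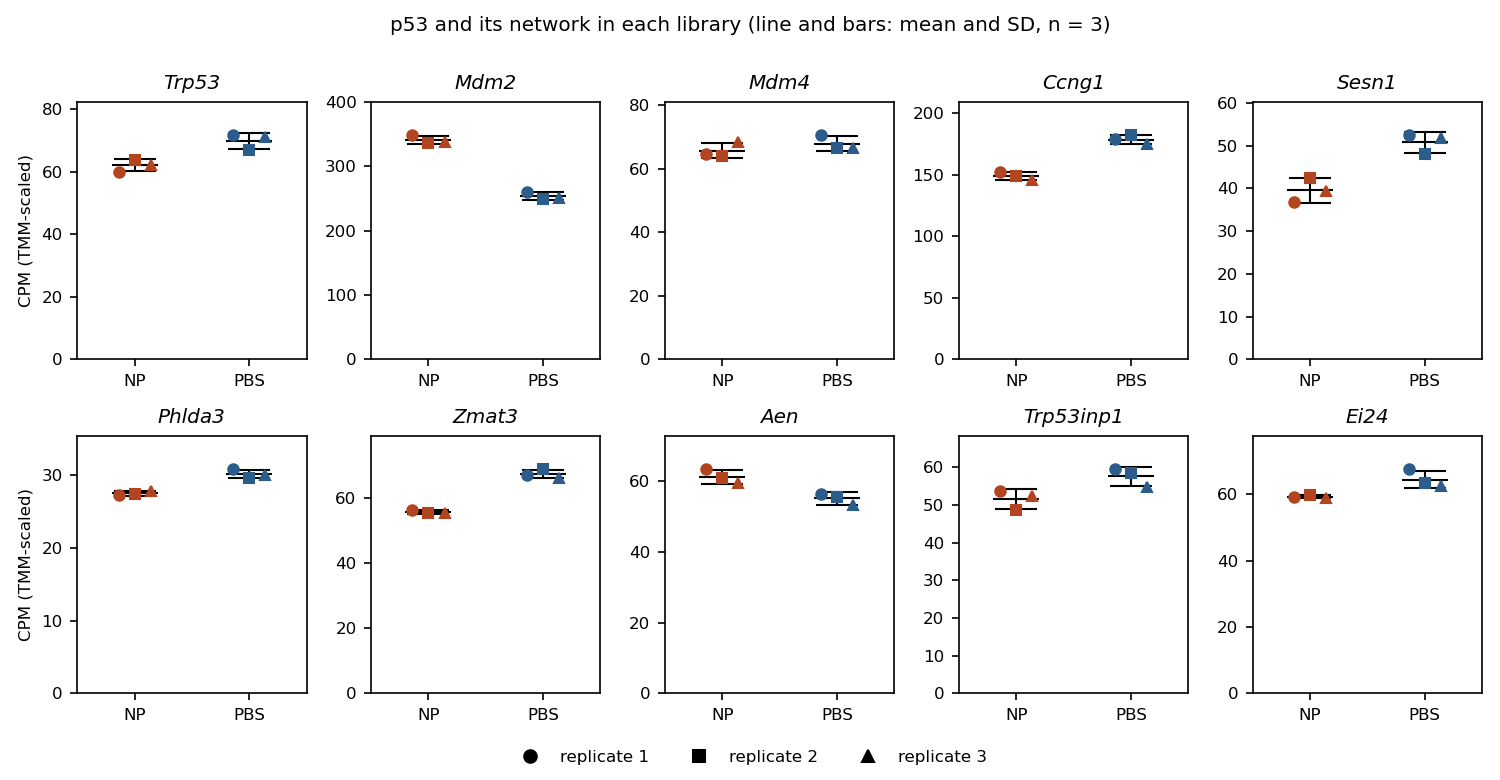
CPM (scaled by TMM factors) of each of the 10 genes in every library, NP left of PBS, with 1 marker shape per replicate number and a line and bars for mean and SD (n = 3). Mdm2 at 336 to 348 CPM in NP lies above 249 to 261 CPM in PBS, Aen is also above, Mdm4 overlaps, and the other 7 genes lie lower in NP.

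The opposite movement of Mdm2 and Trp53 showed in their ratio within each library. Per kilobase of exon, the level of Mdm2 over that of Trp53 was 4.62, 4.19 and 4.31 in NP 1 to 3, against 2.89, 2.96 and 2.81 in PBS 1 to 3. No NP library came near the PBS libraries, and the mean ratio was 4.37 ± 0.221 in NP and 2.89 ± 0.0731 in PBS (SD, n = 3 each; two-sided exact permutation p = 0.1, the smallest that 3 against 3 allows). With Mdm2 higher and Trp53 lower in every NP library, this separation was fixed in advance. The permutation p of this ratio therefore adds nothing to the 2 results above. The ratio of Mdm2 to its relative Mdm4 was 15.7, 15.3 and 14.4 in NP, against 10.8, 10.9 and 11 in PBS. The ratio of Mdm4 to Trp53 was 0.295, 0.274 and 0.3 in NP, against 0.269, 0.271 and 0.256 in PBS, a smaller shift in which NP 2 lay just above PBS 2. Both of these had the same permutation p, and 3 ratios were computed. Mdm4 ran only from 64.1 to 70.5 CPM over the libraries, so the separation of the ratio of Mdm2 to Mdm4 also followed from the levels of Mdm2. Its permutation p adds nothing to the result for Mdm2. The size of a ratio rests on the exonic lengths, which merge all annotated exons of a gene, but its relative shift between groups does not.

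Levels can be set side by side between genes only per length of exon, here from GENCODE M21 on GRCm38. That length merges all annotated exons of a gene, so it can exceed that of the mRNA made in these cells. The order below depends on it. In NP the order was Mdm2 (67.0 CPM per kb), Ccng1 (42.4), Phlda3 (17.6), Trp53 (15.3), Ei24 (12.2), Aen (10.5), Sesn1 (9.93), Trp53inp1 (7.96), Zmat3 (4.86) and Mdm4 (4.44). Among neighbours in that order, Aen and Sesn1 alone had overlapping libraries. In PBS Ccng1 (50.8 CPM per kb) and Mdm2 (49.9) overlapped at the top, as did Ei24 (13.2) with Sesn1 (12.8), and Aen (9.48) with Trp53inp1 (8.89). Mdm2 therefore stood clear of Ccng1 in NP and not in PBS. Without scaling by length, Mdm4 ranks 3 and Phlda3 ranks 10 in NP, because the exons of Mdm4 add up to 14798 bases and those of Phlda3 to 1559 bases.

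**Figure D2:**
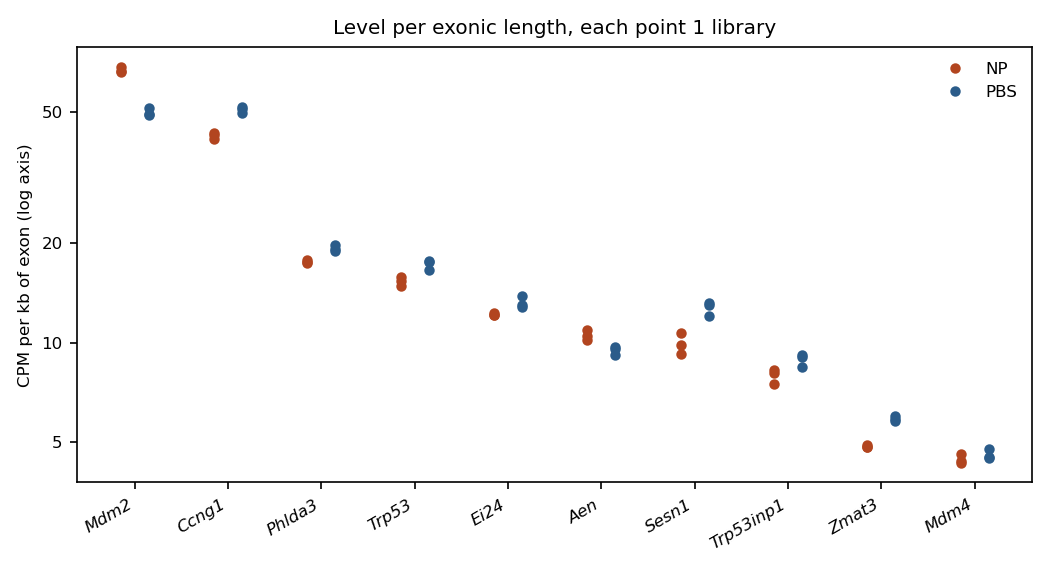
Level per kilobase of exon (CPM per kb, log axis) of the 10 genes, ordered by their NP mean, with each point 1 library and NP left of PBS. Mdm2 (67.0 in NP, 49.9 in PBS) and Ccng1 (42.4 in NP, 50.8 in PBS) have the 2 highest levels on this scale, and Mdm4 has the lowest in both groups.

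Ccng1, Zmat3 and Sesn1 fell most among the targets. Ccng1 encodes cyclin G1, which binds the phosphatase PP2A and acts on Mdm2. Its level was 152, 149 and 146 CPM in NP 1 to 3, against 179, 182 and 175 CPM in PBS 1 to 3, with a wide gap between the groups. The log2 fold change was -0.26 (SE 0.03; limma voom adjusted p = 2.18e-04), which is 16.6% lower by the means of 149 ± 3.06 CPM in NP and 178 ± 3.76 CPM in PBS (SD, n = 3 each). Zmat3, an RNA-binding zinc-finger protein that acts on splicing, had 56.1, 55.4 and 55.3 CPM in NP against 67.0, 68.7 and 66.0 CPM in PBS. Its NP libraries differed by under 1 CPM, and the log2 fold change was -0.27 (SE 0.03; limma voom adjusted p = 1.68e-04). Sesn1 encodes sestrin 1, a stress protein that restrains the growth kinase complex mTORC1. It had 36.8, 42.5 and 39.3 CPM in NP against 52.5, 48.0 and 51.9 CPM in PBS, a log2 fold change of -0.37 (SE 0.06; limma voom adjusted p = 8.26e-04). Sesn1 thus had the largest decrease of the 10 genes, 22.5% lower, and also the widest spread within NP relative to its level. On GRCm38 these genes lie at chr11:40748552-40755311 (Ccng1, minus strand), chr3:32334792-32366014 (Zmat3, minus) and chr10:41809935-41908424 (Sesn1, plus). All 3 genes were called under each of the 16 alternatives, and against PBS 1 alone their log2 fold changes were -0.27 (Ccng1), -0.28 (Zmat3) and -0.42 (Sesn1).

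Phlda3, Trp53inp1 and Ei24 were lower by smaller amounts, and their calls were lost under several alternatives. Phlda3, whose pleckstrin-homology domain competes with the kinase Akt for membrane lipids, had 27.2, 27.3 and 27.8 CPM in NP against 30.7, 29.6 and 30 CPM in PBS. Trp53inp1, a stress-induced protein with roles in autophagy and cell death, had 53.6, 48.6 and 52.4 CPM in NP against 59.4, 58.5 and 54.7 CPM in PBS. Ei24, a membrane protein of the endoplasmic reticulum needed for autophagy, had 59.0, 59.9 and 59.0 CPM in NP against 67.5, 63.4 and 62.4 CPM in PBS. In each of the 3 genes all NP libraries lay below all PBS libraries, for Trp53inp1 by about 1 CPM between NP 1 and PBS 3. The log2 fold changes were -0.14 (SE 0.04; limma voom adjusted p = 0.0163) for Phlda3, -0.16 (SE 0.05; 0.0240) for Trp53inp1 and -0.12 (SE 0.04; 0.0275) for Ei24. Without the filter on low counts none of them was called (limma voom adjusted p = 0.141 for Phlda3, 0.133 for Trp53inp1 and 0.173 for Ei24). Phlda3 was no longer called by limma voom without NP 1 (adjusted p = 0.06), NP 3 (0.0528) or PBS 1 (0.0936). Without NP 3 its log2 fold change was -0.135, beside -0.136 in the reported fit, so that call was lost with hardly any change in size. Trp53inp1 was not called without NP 2 (0.101), NP 3 (0.0934), PBS 1 (0.112) or PBS 2 (0.0659), nor Ei24 without NP 1 (0.107), NP 2 (0.0683), NP 3 (0.135) or PBS 1 (0.157), again by limma voom adjusted p. Against PBS 1 alone the log2 fold changes were -0.17 for Phlda3 and -0.21 for Trp53inp1, neither called (limma voom adjusted p = 0.0843 and 0.0668), and -0.19 for Ei24 (0.0334). On GRCm38 they lie at chr1:135766119-135769136 (Phlda3, plus strand), chr4:11156431-11174379 (Trp53inp1, plus) and chr9:36779159-36797393 (Ei24, minus). An antisense gene, Gm26787, overlaps 6.66% of the exonic bases of Ei24 and had 0 counts in every library.

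Aen, the apoptosis-enhancing nuclease, was the single target of the 7 that was higher. It lies at chr7:78895854-78911209 on the plus strand of GRCm38. Its level was 63.2, 60.8 and 59.2 CPM in NP 1 to 3, against 56.4, 55.5 and 53.1 CPM in PBS 1 to 3. The groups did not overlap, and the means were 61.1 ± 2.01 CPM in NP and 55.0 ± 1.695 CPM in PBS (SD, n = 3 each). The log2 fold change was 0.15 (SE 0.04; limma voom adjusted p = 0.0115), and against PBS 1 alone it was 0.11 (adjusted p = 0.205), so the call was lost there. The genes with an exact half-site in a promoter window moved both ways: Mdm2 and Aen were higher, and Trp53, Ccng1, Sesn1 and Ei24 were lower. Of the 2 genes whose windows held none, Phlda3 was lower and Mdm4 did not pass.

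**Figure D3:**
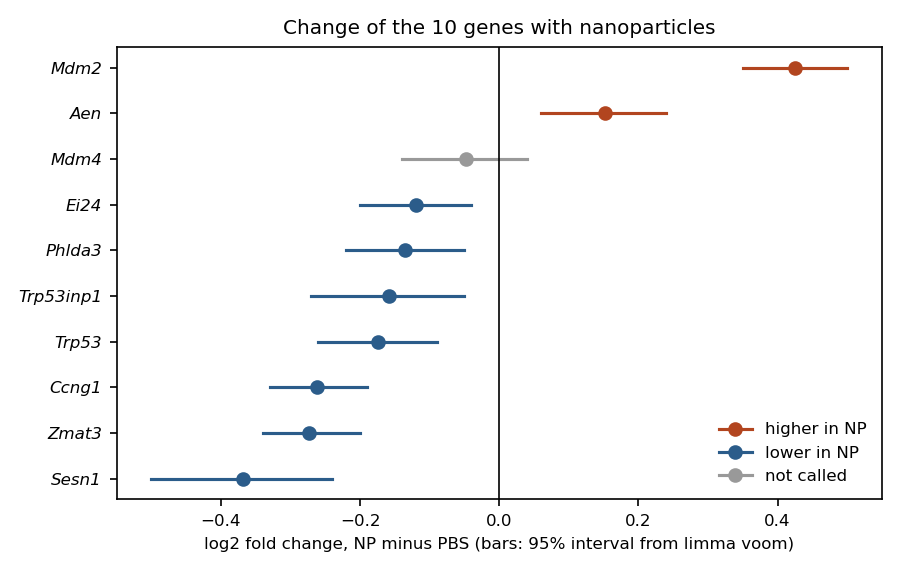
Log2 fold change (NP minus PBS) of the 10 genes with 95% intervals from limma voom, coloured by call. Mdm2 (0.43) and Aen (0.15) lie to the right of 0, the interval of Mdm4 spans 0, and the other 7 genes lie to the left, down to Sesn1 (-0.37).

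The pattern of the 10 genes over the 6 libraries was close within some pairs of genes and looser in others. This is a description over 6 points that share the group difference and the library scaling. Pearson's r of log2 CPM was 0.99 between Trp53 and Sesn1, 0.996 between Ccng1 and Zmat3, -0.984 between Mdm2 and Zmat3 and -0.90 between Mdm2 and Trp53. Weaker pairs were Trp53 and Trp53inp1 (0.601), Mdm4 and Mdm2 (-0.456), and Mdm4 and Ccng1 (0.429, the smallest in size of all pairs). Trp53 and Sesn1 shared a high NP 2 within NP and a low PBS 2 within PBS, whereas Ccng1 and Zmat3 were highest in PBS 2. Among 9583 genes with a mean of at least 5 CPM, the genes whose pattern was most like that of Trp53 were Khsrp (r = 0.9993), Adam8 (0.9987) and Cpne3 (0.9987). Khsrp had 144, 150 and 148 CPM in NP 1 to 3, against 163, 155 and 162 CPM in PBS 1 to 3. Those most like Mdm2 were Mrpl38 (r = 0.9988), Foxred2 (0.9986) and Rraga (0.9977), and Mrpl38 had 60.5, 59.2 and 59.7 CPM in NP against 48.8, 47.6 and 48.3 CPM in PBS.

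The sign of the fold change of every one of the 10 genes was the same under all 16 alternative settings. Mdm2, Ccng1, Sesn1 and Zmat3 were called under all 16, Trp53 and Aen under 15, Phlda3 and Ei24 under 10, Trp53inp1 under 9 and Mdm4 under 0. The log2 fold change ran over the alternatives from 0.38 to 0.46 for Mdm2, from -0.22 to -0.14 for Trp53 and from -0.46 to -0.30 for Sesn1.

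**Figure D4:**
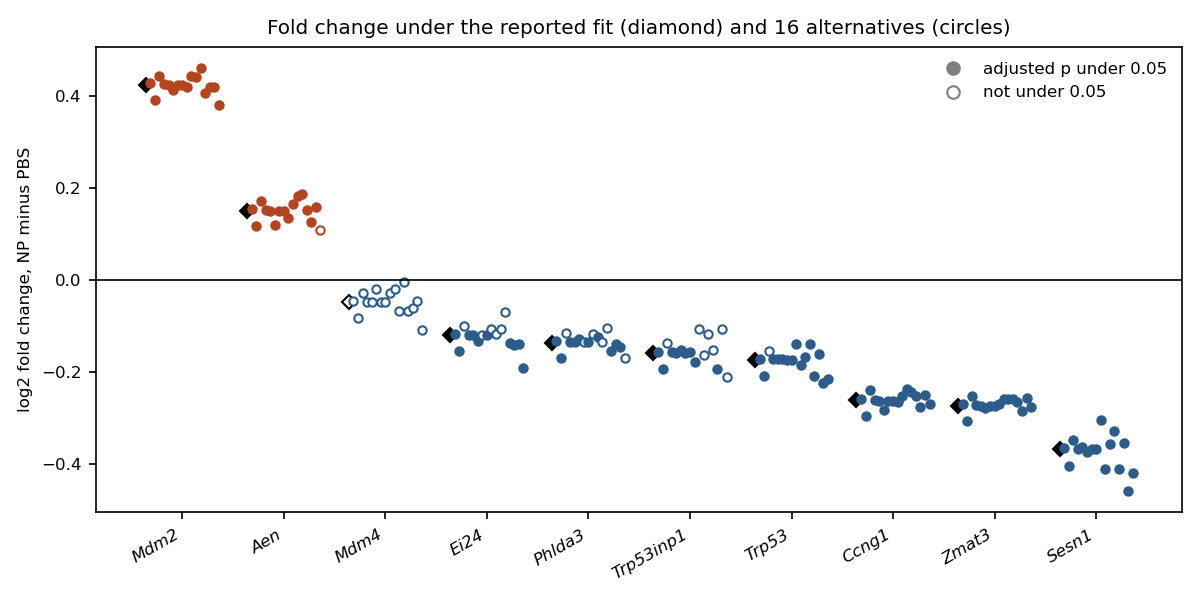
Log2 fold change (NP minus PBS) of each of the 10 genes in the reported fit (diamond) and under 16 alternatives (circles), filled where the adjusted p was under 0.05. No gene crosses 0; Mdm2, Ccng1, Zmat3 and Sesn1 are filled throughout, and Mdm4 is open throughout.

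Other regulators of p53 moved in both directions. Of 30 listed, 28 were tested (Trp63 and Trp73 had too few reads), and 7 were higher, 4 lower and 17 not called, a share called of 39.3% with a median log2 fold change of 0.05. That share is close to the 41.2% called over all tested genes, of which 19.8% were higher and 21.4% lower. Hipk2, a nuclear kinase that phosphorylates p53, had 305, 284 and 293 CPM in NP 1 to 3, against 224, 211 and 222 CPM in PBS 1 to 3 (log2 fold change 0.42, SE 0.04; limma voom adjusted p = 4.8e-05). The p53-binding proteins Ppp1r13l (iASPP, an inhibitor) and Trp53bp2 (ASPP2, a stimulator of its apoptotic function) were both higher, by 0.53 and 0.20 on the log2 scale. Ppp1r13l averaged 19.0 CPM in NP and 13.2 CPM in PBS. Sirt1, a deacetylase of p53, averaged 70.8 CPM in NP and 56.3 CPM in PBS (log2 fold change 0.33). The 4 that fell were the checkpoint kinases Chek1 (log2 fold change -0.58; mean 7.39 CPM in NP, 10.9 CPM in PBS) and Chek2 (-0.41; 15.8 CPM in NP, 20.8 CPM in PBS), the Mdm2-binding protein Mtbp (-0.45; 10.8 CPM in NP, 14.7 CPM in PBS) and Cdkn2a. Cdkn2a, the locus of Arf, which inhibits Mdm2, had 2.46, 2.72 and 2.55 CPM in NP against 3.64, 3.38 and 3.94 CPM in PBS (log2 fold change -0.51, SE 0.11; limma voom adjusted p = 0.00408). This is a count of the whole gene, so the level of the Arf transcript alone is not known. Trp53bp2 and Cdkn2a were not called against PBS 1 alone (limma voom adjusted p = 0.0747 and 0.055). In Chek1, Chek2, Mtbp and Cdkn2a NP 2 was the highest of the NP libraries, as it was for the dividing-cell markers; their part in these decreases was not tested. The damage-sensing kinase Atm (log2 fold change -0.01), the phosphatase Ppm1d (-0.02) and the deubiquitinase Usp7 (0.06) did not pass (limma voom adjusted p = 0.913, 0.715 and 0.107).

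More of the other p53 targets were lower than higher. Of 39 listed, 38 were tested (Rprm had too few reads), and 6 were higher, 14 lower and 18 not called, a share called of 52.6% with a median log2 fold change of -0.07. Over all tested genes 41.2% were called, 19.8% higher and 21.4% lower, and 53.6% of those with a mean of at least 25 CPM. The 2-fold decreases were Gtse1 (10.8, 15.3 and 13.1 CPM in NP against 29.3, 25.4 and 29.9 CPM in PBS; log2 fold change -1.13) and Ckap2 (7.63, 13.1 and 8.82 CPM in NP against 25.3, 22.3 and 26.5 CPM in PBS; -1.38). Both encode microtubule-binding proteins that dividing cells make, and both were highest within NP in NP 2, as the summed dividing-cell markers were; the part of those cells in the decreases was not tested. Cdkn1a, the cell-cycle inhibitor p21 and the best known p53 target, averaged 239 ± 5.67 CPM in NP and 268 ± 3.99 CPM in PBS (SD, n = 3 each), a log2 fold change of -0.17 (limma voom adjusted p = 0.00241). That is the size of the decrease of Trp53 itself, and it was called under all 16 alternatives. The death receptor Fas was lower (4.36 CPM in NP, 7.53 CPM in PBS; log2 fold change -0.78), while Pmaip1, which encodes the apoptosis activator Noxa, was higher (20.8 CPM in NP, 15.1 CPM in PBS; 0.47).

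Plk2, a polo-like kinase, had 527, 469 and 485 CPM in NP 1 to 3, against 324, 335 and 349 CPM in PBS 1 to 3 (log2 fold change 0.55, SE 0.05; limma voom adjusted p = 3.8e-05). Lower were also the phospholipid transfer protein Pltp (log2 fold change -0.62), the receptor kinase Epha2 (-0.99), the reductase Dcxr (-0.34) and the antiproliferative Btg2 (-0.25; limma voom adjusted p = 0.00846). Dcxr was not called by limma voom against PBS 1 alone (adjusted p = 0.0672), nor Btg2 (0.079), which was also lost without NP 1 (0.0501) or NP 3 (0.0682). Perp, the single 2-fold increase of the list and named after its values were seen, averaged 0.796 CPM in NP and 0.317 CPM in PBS. The apoptosis genes Bax (log2 fold change 0.01) and Bbc3 (0.05) and the growth-arrest gene Gadd45a (-0.04) did not pass (limma voom adjusted p = 0.856, 0.408 and 0.719), and the signs of Bax and Gadd45a turned under some alternatives.

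**Figure D5:**
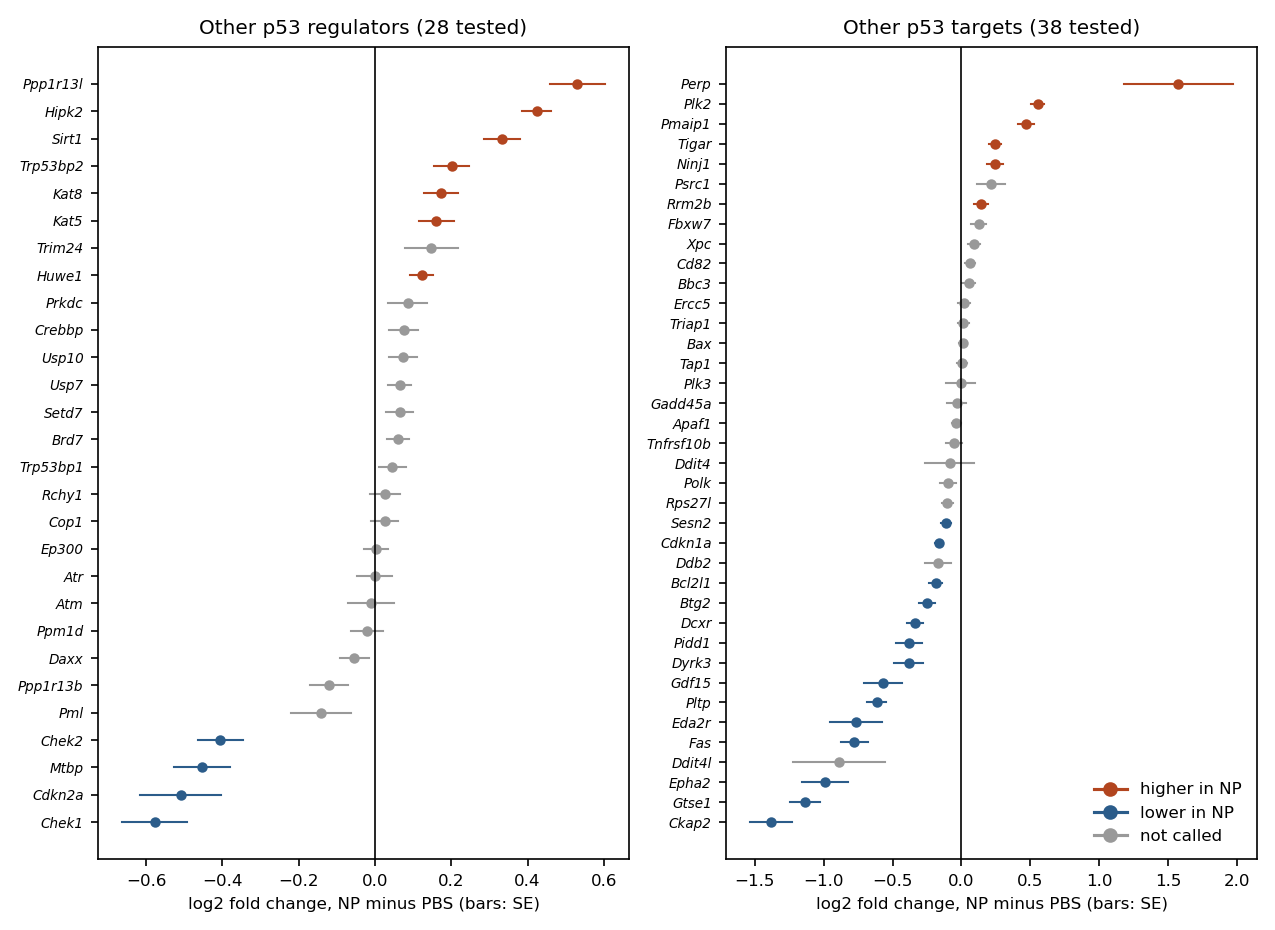
Log2 fold change (NP minus PBS, bars show SE) of 28 other p53 regulators (left) and 38 other p53 targets (right), each sorted by size and coloured by call. Regulators run from Chek1 (-0.58) to Ppp1r13l (0.53), and targets from Ckap2 (-1.38) to Perp (1.57), with called genes at both ends of each panel.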

How the data were processed

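Polyadenylated RNA of 3 NP and 3 PBS libraries was read as pairs of 151 bp, per the labels' protocols. The deposited table holds the authors' expected counts per gene for all 6 libraries, as whole numbers with no scaling. Tools named in the submitters' processing notes are STAR 2.7.8a, RSEM 1.3.3, cutadapt 2.3, MultiQC 1.7 and FastQC 0.11.8, with build GRCm38. Neither the annotation nor the use of strand is given in the sources used here, so reads of a gene and an antisense partner cannot be told apart. RSEM divides reads that match several genes.

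The layout of the table kept its unit from being checked automatically, so models that require one were not run. limma voom (limma 3.58.1, R 4.3.3) was fitted on group alone over genes with at least 0.171 CPM (10 counts at the median depth) in 3 libraries and 15 counts in total, with TMM factors of 0.9794 to 1.017, an offset of 0.5 counts, 4 residual degrees of freedom and Benjamini-Hochberg adjustment over all 14478 tested genes. TMM and the filter were written out in R. The 4 reporter rows of the table had 0 counts and were left out. CPM of single genes uses TMM-scaled library sizes. Marker and receptor sums are scaled to library totals without those factors. Log2 fold changes are NP minus PBS. Chi-square per gene between libraries of 1 group was 6.08 to 19.7, so no pair agreed within sampling noise.

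The 10 genes and all lists were chosen with earlier results of these data known. Named in the text are all 10, in each other p53 list the 8 with the smallest p and a fixed panel (Cdkn1a, Bax, Bbc3, Pmaip1, Fas, Gadd45a, Btg2, Atm, Chek2, Ppm1d, Usp7, Cdkn2a), and the 3 genes most like Trp53 and Mdm2. Alternatives were other scaling, filters, weights and limma-trend, a replicate block, a term for library numbers above 10, and leaving libraries out.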

Additional observations from a re-analysis of the deposited data

How the results depend on the processing

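Of the 10 genes, 2 were called higher and 7 lower, against 2872 and 3092 of all genes tested. Without the filter on low counts 3 of the 10 and 9 other targets were called lower (14 in the reported fit). Fewer genes were then called lower in the whole table too: 2243 of 27636 tested, beside 3092 of 14478 in the reported fit. With PBS 1 standing alone for PBS, 1 of the 10 was called higher and 5 lower; 1197 genes in all were higher and 1775 lower, 3 other regulators were higher and 8 other targets lower. Leaving out 1 library at a time called 4 to 7 of the 10 lower (4 without NP 3 and without PBS 1), 1975 (without NP 3) to 3850 (without PBS 1) of all genes lower, and 7 (without NP 3) to 14 other targets lower. Fits that leave 1 library out have fewer libraries, and their filter asks for fewer libraries too. They tested 14696 (without PBS 2) to 16054 (without PBS 1) genes, against 14478 in the reported fit. The cause of these shifts was not tested. Signs turned only for genes that were not called: Bax had log2 fold changes of -0.027 with library totals, -0.000 with sample weights and -0.016 with PBS 1 alone, and -0.005 to 0.033 without single libraries. Gadd45a had 0.004 with sample weights, 0.027 without both libraries numbered above 10 and 0.054 with PBS 1 alone, and -0.075 to 0.043 without single libraries. Atm had 0.011 without the filter and -0.075 to 0.052 without single libraries, and Ppm1d -0.042 to 0.003. Same-numbered libraries did not deviate together (correlations -0.014, -0.124 and -0.141), so the numbers are not taken as pairs, although both libraries of replicate 2 are numbered above 10. With the replicate block 2 of the 10 were higher and 5 lower (Phlda3, adjusted p = 0.0556, and Ei24, 0.0595, were not called by limma voom), beside 2353 genes higher and 2669 lower in all. Whether a difference passed turned on its SE as well as its size.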
